A study of Mus musculus with 18 samples.

Results

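The circles and mRNAs of 7 receptor genes of the transforming growth factor beta (TGF-beta) and bone morphogenetic protein (BMP) pathways were examined: Tgfbr1, Tgfbr2, Tgfbr3, Acvr1, Acvr2a, Bmpr1a and Bmpr2. A circRNA was counted as a receptor circle when both of its ends lay inside the span of one of these genes, and 25 of the 16171 circRNAs listed in the series met this rule. The circles were selected on their being listed with junction reads in any library, and the cytoplasmic reads of 1 of them, Tgfbr3 exons 3-4, were known when the genes were chosen. The cells were NIH/3T3, a mouse embryonic fibroblast line, either wild type (WT) or knocked out for XPO4 (KO), a nuclear export receptor, by CRISPR-Cas9. The KO is a line of edited cells, so that the genotype and the line cannot be told apart, and no treatment or time point differed between the groups. CircRNAs were sequenced after digestion of linear RNA with RNase R in 2 libraries per genotype for nuclear, cytoplasmic and total RNA, and mRNA in 3 libraries of each genotype. The comparison asks whether the levels of exonic circRNAs in the nucleus and the cytoplasm differ without XPO4. Nothing in the labels says that replicates came from separate cultures, so p-values measure the spread between these libraries, which may be technical.

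Signalling by these receptors starts when a TGF-beta, activin or BMP ligand gathers type II and type I receptors, both serine/threonine kinases, at the cell surface. The type II receptors here are Tgfbr2, for TGF-beta, Acvr2a, for activins and some BMPs, and Bmpr2, for BMPs, and they phosphorylate the type I receptors Tgfbr1, Acvr1 and Bmpr1a, which in turn phosphorylate Smad transcription factors. Tgfbr3, or betaglycan, is a co-receptor without a kinase domain that presents TGF-beta to the other receptors, and in fibroblasts the pathway is known for raising matrix and contractile genes. An exonic circRNA forms when the 3′ end of an exon is joined back to the 5′ end of the same or an earlier exon, and the reads that cross this backsplice junction are what the files count.

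Depth limits the circle counts. The nuclear libraries held 2189 to 4383 junction reads in all, the cytoplasmic ones 50629 to 81941 and the total RNA ones 50341 to 58165. The mRNA libraries held 16974062 to 22057323 counted read pairs. Each circRNA of a fraction was listed in at least 2 of its 4 libraries, so a circle below that is unlisted rather than absent, and intervals of counts cover counting error only. A circRNA could thus be listed through the libraries of 1 genotype alone. Over the listed cytoplasmic circRNAs, Spearman correlations were 0.872 between WT libraries, 0.81 between KO libraries and -0.206 to -0.106 between genotypes. In total RNA they were 0.731, 0.741 and -0.0704 to 0.034, and in the nucleus 0.413, 0.483 and -0.298 to -0.158. Fibroblast genes such as Col1a2 (81809 to 96095 counts) were abundant in all 6 mRNA libraries, while Epcam and Krt18 of epithelia, Hbb-bs of red cells and Myod1 of muscle were at 0 in all 6. The other epithelial markers were low, with 7, 6 and 7 counts of Cdh1 in WT and 6, 1 and 4 in KO, and Krt8 at 2 counts in WT replicate 1 alone. Of the blood markers, Ptprc had 103 to 108 counts in WT and 21 to 32 in KO, Cd68 had 92 to 140 in WT and 52 to 75 in KO, and Lyz2 had 1 to 3 in WT and 10 to 13 in KO. The summed level of the 4 blood markers was 10.0 to 12.6 CPM (counts scaled to 1000000 in the library) in WT and 5.33 to 6.19 in KO, and their part in the results was not tested. The summed epithelial markers reached at most 0.453 CPM, the endothelial markers 0.717 CPM and the muscle markers 1.28 CPM. Tubb3 of neurons had 0 counts in WT and 19 to 37 in KO. Xpo4 mRNA had 657, 614 and 685 counts in WT and 712, 504 and 687 in KO, with overlapping groups (log2 fold change 0.18, SE 0.11, adjusted p = 0.193), so it does not tell the labels apart, and without KO replicate 2 it was higher in KO (0.34, adjusted p = 0.000252).

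The junctions of 7 circles on which the results turn are printed here, on GRCm38 with RefSeq genome sequence. The 25 bases in lower case end the last exon of the circle, the 25 in capitals begin its first exon, and a read had to cross the step from lower case to capitals to be counted. All 7 circles lay wholly in coding exons.
Bmpr2 exons 2-3, chr1:59813588-59815411, plus strand: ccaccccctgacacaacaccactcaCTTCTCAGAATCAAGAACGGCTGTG
Acvr2a exons 2-4, chr2:48870289-48873473, plus strand: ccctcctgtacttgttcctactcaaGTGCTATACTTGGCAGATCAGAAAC
Acvr1 exons 7-9, chr2:58458885-58468660, minus strand: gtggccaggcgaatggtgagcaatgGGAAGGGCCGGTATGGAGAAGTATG
Acvr1 exons 4-9, chr2:58458885-58479928, minus strand: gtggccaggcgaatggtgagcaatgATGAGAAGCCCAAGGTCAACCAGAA
Tgfbr1 exons 2-4, chr4:47383749-47396585, plus strand: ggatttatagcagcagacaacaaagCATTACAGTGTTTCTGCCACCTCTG
Tgfbr2 exons 2-3, chr9:116129816-116131713, minus strand: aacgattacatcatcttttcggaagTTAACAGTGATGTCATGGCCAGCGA
Tgfbr3 exons 3-4, chr5:107177805-107215077, minus strand: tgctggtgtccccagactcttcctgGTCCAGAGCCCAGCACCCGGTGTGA
The Acvr1 pair is shown because both circles end at exon 9 and share all 25 lower-case bases, so that only the capitals distinguish them. Reads shorter than the circle cannot tell which inner exons it holds, and the exons named are those of the annotated transcript.

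All 25 receptor circles had both ends on annotated exon edges, with AG before the acceptor and GT after the donor in the genome, and each lay in the span of 1 gene only. Tgfbr3 gave 8 circles, Acvr1 7, Bmpr1a 4, Tgfbr1 and Tgfbr2 2 each, and Acvr2a and Bmpr2 1 each. The circles used 19 distinct acceptor edges and 21 distinct donor edges, and 17 of the 25 shared an edge with another receptor circle. Circles of a gene therefore are not independent of each other. Their spliced length ran from 157 nt (Tgfbr3 exon 2) to 1543 nt (Tgfbr3 exons 8-16), with a median of 574 nt beside 518 nt over all 15426 circRNAs on exon edges. The median number of exons was 3 beside 4, and 2 of the 25 were single exons (Tgfbr3 exon 2 and Tgfbr2 exon 4). Exon 2 opened 10 of the 25, or 40%, beside 28.5% of all. The intron before the acceptor had a median of 20560 bases beside 6138, and the intron after the donor 8502 bases beside 4480. These are descriptions without a test. Exon numbers follow the annotated transcript that holds both edges, which for Acvr1 exons 2-3 and 2-5 is a transcript of 13 exons and for the other Acvr1 circles a transcript of 11.

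**Figure D1:**
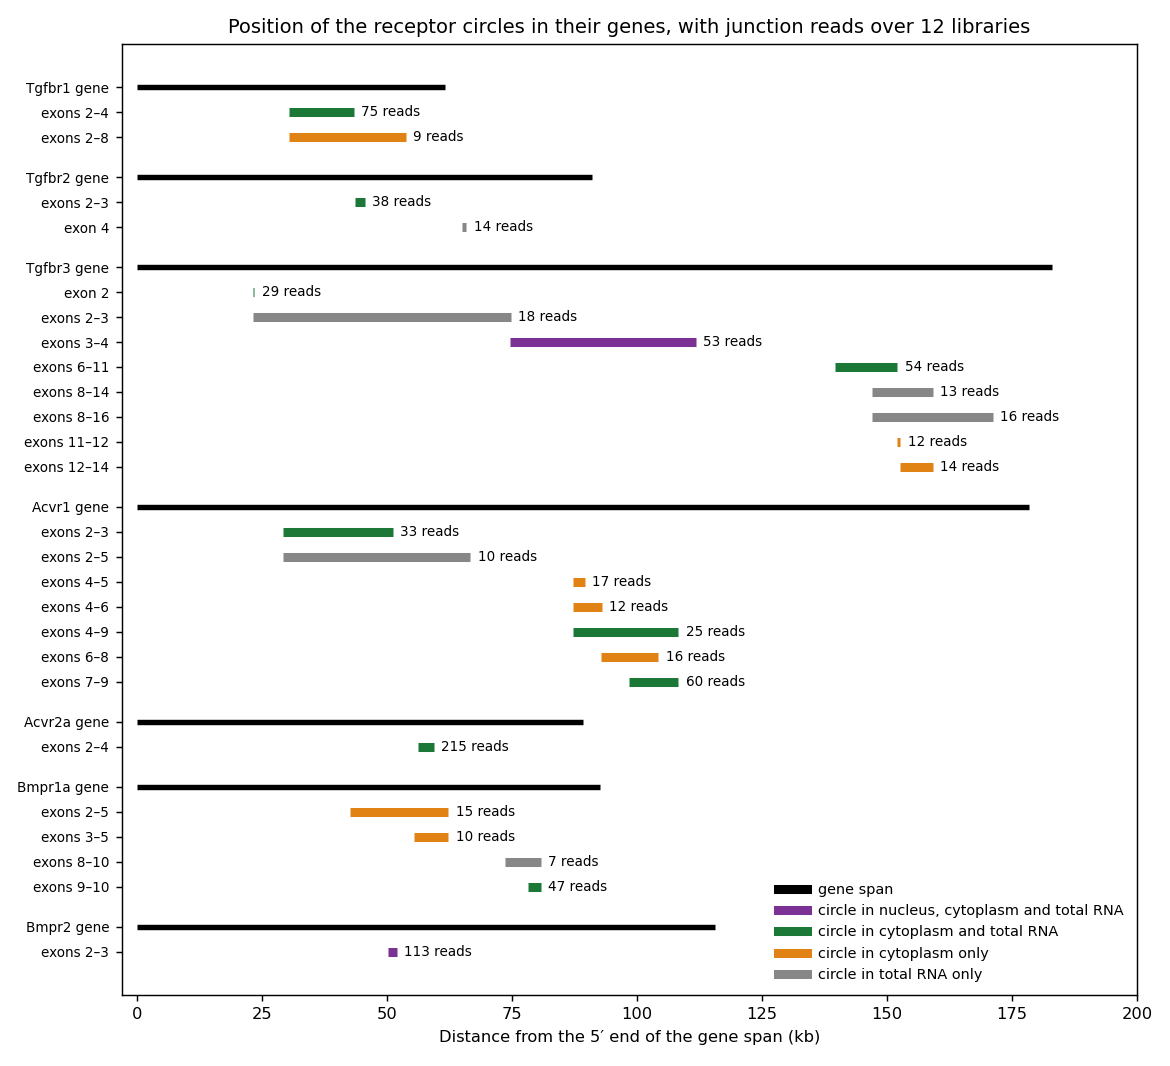
Each receptor gene is a black bar from its 5′ end (distance in kb), and each coloured bar below it is the genomic span of a circle, with its junction reads summed over the 12 libraries and its colour giving the fractions that list it. Acvr2a exons 2-4 (215 reads) and Bmpr2 exons 2-3 (113 reads) had the most reads, and only Bmpr2 exons 2-3 and Tgfbr3 exons 3-4 were listed in the nucleus.

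Receptor circles had 7 to 215 reads over the 12 libraries, with a median of 17. The nuclear libraries listed 2 of them with 20 reads in all, the cytoplasmic libraries 19 with 525 reads and the total RNA libraries 17 with 380 reads. Total RNA and cytoplasm shared 11 circles, while 8 were listed in the cytoplasm but not in total RNA and 6 in total RNA but not in the cytoplasm. Summed over the 7 genes, receptor circles made 1568 and 2075 RPM (junction reads scaled to 1000000 circRNA reads in the library) in the WT cytoplasm and 1738 and 2289 in the KO cytoplasm. In total RNA the sum was 1973 and 1615 in WT and 1650 and 1609 in KO. Both pairs of groups overlap, and with 2 libraries against 2 an exact permutation test cannot give a p below 0.333. In the nucleus the sum was 914 and 380 RPM in WT, from 2 reads and 1 read, and 2939 and 1369 in KO, from 11 and 6 reads.

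Which receptor circles differed between genotypes in the cytoplasm was tested over all 8917 cytoplasmic circRNAs with at least 10 reads. Of the 17 receptor circles tested, 8 passed an adjusted p of 0.05 (edgeR's quasi-likelihood test), 4 higher and 4 lower in KO. Each of the 8 had fewer than 10 reads in the genotype where it was lower, and so entered the test through the other genotype. The background was 53.5% of all circRNAs tested, 30.0% higher and 23.5% lower in KO, and the share of receptor circles called is near that of circRNAs in general. Of the type II receptors, circles of Bmpr2 and Tgfbr2 fell, and that of Acvr2a was not called (log2 fold change 0.50, adjusted p = 0.598). Of the type I receptors, a Tgfbr1 circle rose, Acvr1 gave circles of both directions and no Bmpr1a circle was called. For the co-receptor Tgfbr3, exon 2 and exons 11-12 rose, while exons 6-11 (-0.28) and exons 12-14 (-0.75) were lower without a call. RPM values did not overlap between genotypes for 14 of the 17, 5 higher and 9 lower in KO, where 82.2% of all circRNAs tested did not overlap, 38.1% higher and 44.1% lower. The median log2 fold change over all circRNAs was -0.25, and -0.77 with reads left unscaled, and changes are to be read against it. With DESeq2, which gave an adjusted p for 7 of the 17, 2 passed (Acvr1 exons 7-9 and Bmpr2 exons 2-3), against 9.86% of all circRNAs. When a cytoplasmic library was left out, fewer receptor circles and fewer circRNAs in general were called.

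**Figure D2:**
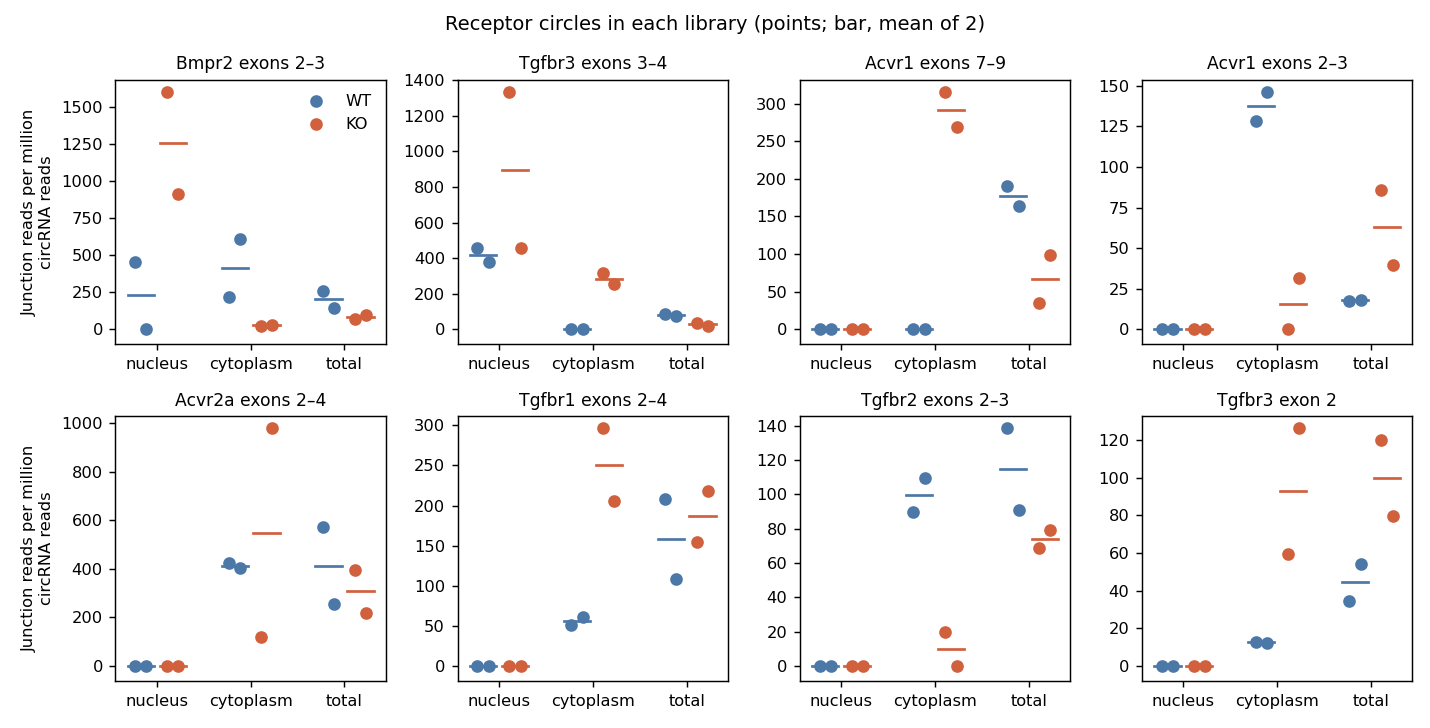
RPM of 8 receptor circles in the nucleus, cytoplasm and total RNA, with WT in blue and KO in orange, points for libraries and a bar for the mean of 2; the vertical scales differ. Acvr1 exons 7-9 was at 0 in both WT cytoplasmic libraries and above KO in both WT total RNA libraries, and the KO cytoplasmic libraries of Acvr2a exons 2-4 lay at 119 and 979.

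Bmpr2 exons 2-3, the only circle of this BMP type II receptor, had 17 and 50 reads in the WT cytoplasm and 1 and 2 in the KO cytoplasm. Every KO value lay below every WT value, and the WT libraries themselves differed, at 219 and 610 RPM. The circle fell by 3.82 on the log2 scale (SE 0.81, adjusted p = 0.000932), or by 3.57 relative to the median circRNA. Its call was lost without KO replicate 1 (adjusted p = 0.0605). Its total RNA values were 15 and 8 WT reads against 4 and 5 in KO, again without overlap (log2 fold change -1.29, SE 0.53, adjusted p = 0.115). The nucleus went the other way, with 1 and 0 WT reads against 6 and 4 in KO (log2 fold change 2.19, SE 1.06, adjusted p = 0.180), 5.08 without WT replicate 1 and 0.93 without WT replicate 2 (adjusted p = 0.339 and 0.813). In this fraction 10.1% of the 651 circRNAs tested were called, and 1.69% of the 651 as higher in KO. KO lay above WT in every nuclear library for 39.9% of the 651. Over both genotypes it was the most read receptor circle of the nucleus.

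The Nuc/Cyto ratio of Bmpr2 exons 2-3 differed between KO and WT by 6.43 on the log2 scale (SE 1.41, unadjusted p = 0.0015, adjusted p = 0.992 over 9266 circRNAs), and by 5.37 (without KO cytoplasmic replicate 1) to 10.7 (without WT nuclear replicate 1) when a library was left out. No circRNA of the series passed this edgeR test after adjustment, 1.24% had an unadjusted p under 0.05, and DESeq2 called 1, or 0.0108%. The circle was thus higher in KO nuclei and lower in KO cytoplasm in all libraries, on 11 nuclear reads.

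Tgfbr3 exons 3-4 was known for its cytoplasmic difference before these circles were chosen, and its cytoplasmic reads are given without a test: 0 and 0 in WT and 16 and 16 in KO, at least 15.6-fold higher against a floor of 3 counts over the WT group. It is also the other circle of the nuclear lists, with 1 and 1 WT reads against 5 and 2 in KO, which was below the 10 reads needed for a test. In RPM the nuclear values, 457 and 380 in WT and 1336 and 456 in KO, overlapped. Total RNA showed 5 and 4 WT reads against 2 and 1 in KO, lower in both KO libraries (log2 fold change -1.47, SE 0.63, adjusted p = 0.177).

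The other 7 Tgfbr3 circles together had 15 and 14 reads in the WT cytoplasm and 18 and 17 in the KO cytoplasm. Among them Tgfbr3 exons 11-12 rose from 1 and 0 reads to 5 and 6 (log2 fold change 3.66, SE 0.86, adjusted p = 0.00181), and Tgfbr3 exon 2 rose from 1 and 1 to 3 and 8 (2.83, SE 0.76, adjusted p = 0.00441). Tgfbr3 exons 6-11, the Tgfbr3 circle with the most reads, had 8 and 8 in WT and 7 and 2 in KO and did not pass (-0.28, SE 0.56, adjusted p = 0.687). These calls rest on 13 reads or fewer per circle, and both were lost without WT replicate 2 (adjusted p = 0.0819 for each). Tgfbr3 exon 2 is among the 5 of the 25 receptor circles that hold the start codon of their own gene.

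Acvr1 showed circles of both directions within 1 gene. Acvr1 exons 7-9 had 0 and 0 reads in the WT cytoplasm and 16 and 17 in the KO cytoplasm. This was at least 16.1-fold higher against the same floor (edgeR adjusted p = 0.000138, DESeq2 adjusted p = 0.0184). The circle was listed there and entered the test through its KO reads alone, so these p-values are not independent support for the rise. The other 6 Acvr1 circles together went from 33 and 38 reads in WT to 6 and 6 in KO. Of these, Acvr1 exons 2-3, a circle of untranslated exons, fell from 10 and 12 reads to 0 and 2 (-2.79, SE 0.72, adjusted p = 0.00326), and Acvr1 exons 6-8 fell from 6 and 9 to 1 and 0 (-3.12, SE 0.88, adjusted p = 0.00594). Acvr1 exons 4-9, which shares its donor edge with exons 7-9, had 5 and 6 WT reads against 2 and 1 in KO and did not pass (adjusted p = 0.177). The calls of exons 2-3 and 6-8 were lost without KO replicate 1 and KO replicate 2, respectively (adjusted p = 0.218 and 0.267). Summed over the gene, Acvr1 circles made 424 and 464 RPM in WT and 434 and 363 in KO, and the groups overlap (log2 fold change -0.18, SE 0.30, adjusted p = 0.654).

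In total RNA a pair of Acvr1 circles ran against the cytoplasm. Acvr1 exons 7-9 had 11 and 9 WT reads against 2 and 5 in KO, lower in both KO libraries (-1.44, SE 0.53, adjusted p = 0.0933, and -0.54 without KO replicate 1, adjusted p = 0.661), although the WT cytoplasmic libraries list it at 0. Acvr1 exons 2-3 had 1 and 1 WT reads against 5 and 2 in KO, too few for a test. The difference between fractions was not tested for these circles.

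Tgfbr1 exons 2-4, from the type I receptor for TGF-beta, had 4 and 5 reads in the WT cytoplasm and 15 and 13 in the KO cytoplasm, a rise of 2.15 on the log2 scale (SE 0.52, adjusted p = 0.00215), or 2.40 relative to the median circRNA. Total RNA held 12 and 6 WT reads against 9 and 11 in KO and the groups overlapped (0.19, SE 0.51, adjusted p = 0.809). Its cytoplasmic call was lost with DESeq2 (adjusted p = 0.0704) and without either WT replicate (adjusted p = 0.0682 and 0.109). The longer Tgfbr1 exons 2-8 had 3 and 5 WT reads against 0 and 1 in KO cytoplasm and was not tested.

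Tgfbr2 exons 2-3 had 7 and 9 reads in the WT cytoplasm and 1 and 0 in the KO cytoplasm (-3.21, SE 0.86, adjusted p = 0.0043), and the call was lost without KO replicate 2 (adjusted p = 0.234). Total RNA held 8 and 5 WT reads against 4 and 4 in KO. The other Tgfbr2 circle, exon 4 alone, was listed in total RNA only, with 6 and 7 WT reads against 1 and 0 in KO (-3.37, SE 0.83, adjusted p = 0.058). Both Tgfbr2 circles had lower read counts in KO than in WT in every library of the fractions that list them.

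Acvr2a exons 2-4, the most read receptor circle, differed widely between the KO cytoplasmic libraries. It had 33 and 33 reads in the WT cytoplasm, and 6 and 62 in the KO cytoplasm, on both sides of WT (log2 fold change 0.50, SE 0.80, adjusted p = 0.598). Without KO replicate 2 the value was -1.37 and without KO replicate 1 it was 1.87 (adjusted p = 0.165 and 0.0465). Total RNA held 33 and 14 WT reads against 23 and 11 in KO, again overlapping (-0.43, SE 0.62, adjusted p = 0.631). The 3 circRNAs of other genes with the most similar levels over the 12 libraries came from Hspa4, Rps6ka5 and Ptbp3, with a Pearson r of 0.997 to 0.998 on log2(RPM + 1) among 1983 circRNAs with at least 50 reads. All 4 circles were unlisted in the 4 nuclear libraries, which are 4 of the 12 points. The KO cytoplasmic libraries differed for all 3 in the same direction, with 4 and 26 reads for the Hspa4 circle, 2 and 21 for Rps6ka5 and 6 and 44 for Ptbp3.

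None of the 3 circles of Bmpr1a, a type I receptor for BMPs, that were tested in the cytoplasm passed. Bmpr1a exons 9-10 had 4 and 5 reads in the WT cytoplasm and 4 and 8 in the KO cytoplasm (0.94, SE 0.54, adjusted p = 0.180, and 0.0494 without KO replicate 1). Bmpr1a exons 2-5 had 3 and 6 in WT and 4 and 2 in KO (-0.04, SE 0.65, adjusted p = 0.966). Bmpr1a exons 8-10 was listed in the KO libraries of total RNA alone, with 0 and 0 WT reads against 3 and 4 in KO, too few for a test.

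In total RNA none of the 15 receptor circles tested was called by edgeR, nor was any of the 8903 circRNAs tested. At an unadjusted p under 0.05 there were 5 receptor circles, and 38.2% of all circRNAs, and DESeq2 called none of the 15 and 7 in all, or 0.0786%. The 5 were Tgfbr2 exon 4, Acvr1 exons 4-9, Acvr1 exons 7-9 and Bmpr2 exons 2-3, lower in KO, and Acvr1 exons 2-5, higher in KO (1 and 0 reads in WT, 4 and 5 in KO, log2 fold change 2.92). With the total of circRNA reads as the scaling, 2 of the 15 passed, Tgfbr2 exon 4 and Acvr1 exons 2-5 (adjusted p = 0.00998 and 0.0346), and so did 2003 of all circRNAs. RPM values did not overlap between genotypes for 11 of the 15, 5 higher and 6 lower in KO, beside 70.1% of all circRNAs, 33.3% higher and 36.8% lower.

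**Figure D3:**
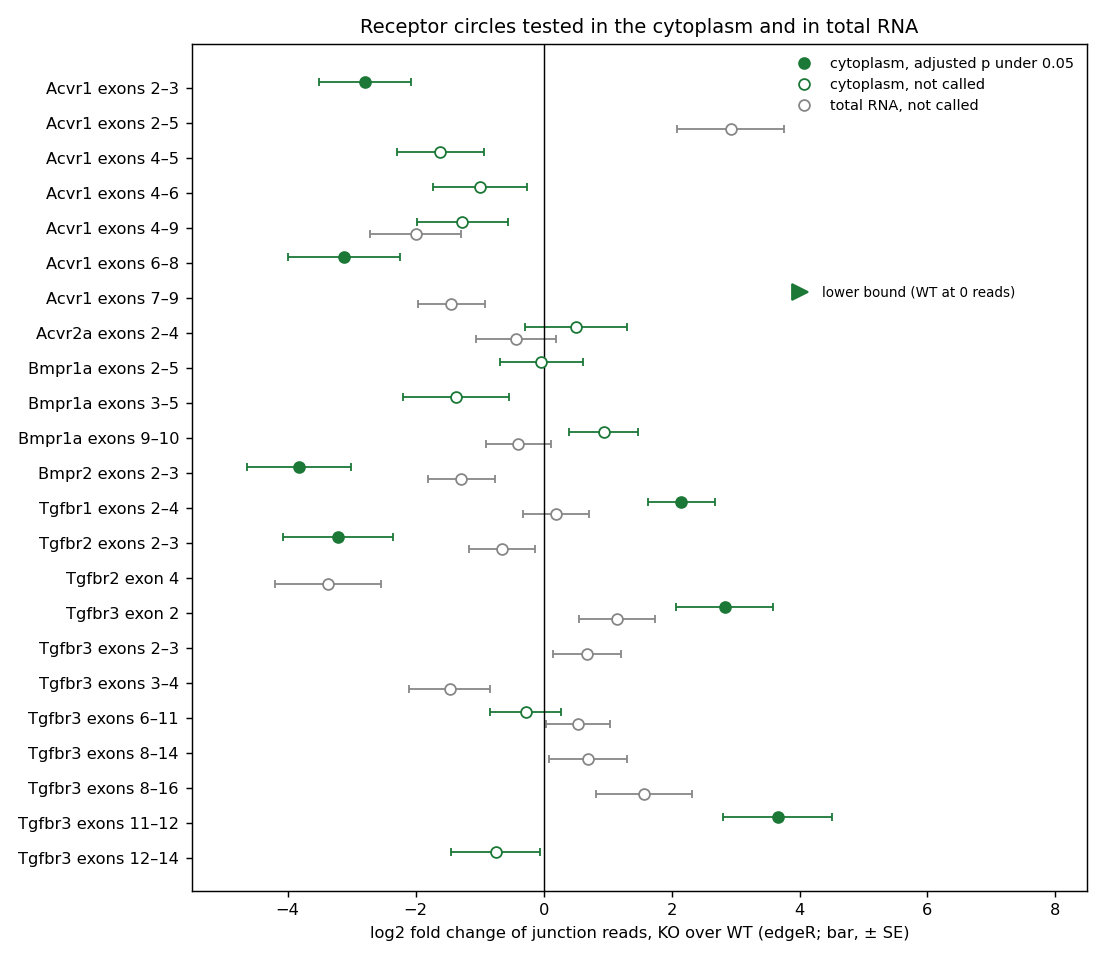
Log2 fold change of junction reads in KO over WT with its SE for receptor circles tested in the cytoplasm (green) and total RNA (grey), filled where the adjusted p was under 0.05; the arrowhead is a lower bound and Tgfbr3 exons 3-4 is not drawn for the cytoplasm. Bmpr2 exons 2-3 lay below 0 in both fractions (-3.82 and -1.29), and Acvr1 exons 7-9 lay on opposite sides.

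Reads were also summed per host gene. Bmpr2 and Acvr2a have 1 circle each, and Tgfbr2 has 1 in the cytoplasm, so that these sums restate the reads of the circle test. In the cytoplasm, where 45.6% of 3605 host genes were called, 3 of the 6 receptor genes tested passed, 1 higher and 2 lower in KO beside 24.9% and 20.7% of all host genes. Bmpr2 fell by 3.90 on the log2 scale (SE 0.69, adjusted p = 0.00232), Tgfbr2 fell by 3.27 (SE 0.83, adjusted p = 0.0102) and Tgfbr1 rose by 1.24 (SE 0.33, adjusted p = 0.0132). Tgfbr3, whose sum holds the circle known beforehand, had 15 and 14 WT reads against 34 and 33 in KO and was not tested. In total RNA, Tgfbr2 circles fell from 14 and 12 reads to 5 and 4 (-1.46, SE 0.40, adjusted p = 0.0468), the only call among the 7 genes where 10.7% of 3553 host genes were called. DESeq2 called 1 of the 6 in the cytoplasm (Bmpr2), where it called 3.91% of host genes, and none of the 7 in total RNA, where it called 0.0844%. Without scaling, 1094 of 3605 host genes passed in the cytoplasm. Of the 6 receptor genes tested, Tgfbr2 alone did (adjusted p = 0.0406, against 0.0552 for Bmpr2 and 0.134 for Tgfbr1). The cytoplasmic call of Tgfbr1 was also lost without WT replicate 1 and without KO replicate 1 (adjusted p = 0.124 and 0.0587), and that of Tgfbr2 without KO replicate 2 (adjusted p = 0.107). Leaving out a circRNA library leaves 1 in a genotype. Calls did not hold in all such fits, and the cytoplasmic call of Bmpr2 was lost without WT replicate 2. In each of these fits fewer host genes in general were called. The cytoplasmic values then ran from -4.48 to -3.22 for Bmpr2, -5.87 to -2.23 for Tgfbr2 and 1.01 to 1.47 for Tgfbr1. The Tgfbr2 value in total RNA ran from -1.61 to -1.25, and its call held in none of these fits.

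Whether the receptor mRNAs differed was tested over 14688 genes, of which 48.7% were called. Of the 7 receptor mRNAs, 5 passed, 2 higher and 3 lower in KO, against 25.1% and 23.6% of all genes, and all changes were small, at most 1.34-fold. The type I receptors Tgfbr1 and Acvr1 rose, the type II receptors Acvr2a and Bmpr2 and the co-receptor Tgfbr3 fell, and Tgfbr2 and Bmpr1a did not pass. The column heading inside each mRNA file names the other genotype, sample titles were followed, and every mRNA direction would turn if the headings were right. In bulk RNA, fewer cells that express a gene and less RNA per cell cannot be told apart.

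Tgfbr1 mRNA had 1196, 1150 and 1280 counts in WT and 1442, 1180 and 1365 in KO, or 59.0 ± 1.06 CPM and 75.7 ± 8.56 CPM (SD, n = 3), and the groups did not overlap in CPM (log2 fold change 0.36, SE 0.07, adjusted p = 0.00135). Acvr1 had 716, 638 and 726 counts in WT and 793, 732 and 740 in KO, or 33.9 ± 1.86 and 43.0 ± 1.91 CPM (0.34, SE 0.07, adjusted p = 0.00106), again without overlap. Acvr2a, the least abundant of the 7, had 293, 291 and 323 counts in WT and 208, 181 and 194 in KO, or 14.8 ± 0.131 and 11.1 ± 0.847 CPM (-0.42, SE 0.10, adjusted p = 0.00351). It was lower in all KO libraries. Bmpr2 had 2251, 2058 and 2135 counts in WT and 1662, 1413 and 1629 in KO (-0.24, SE 0.08, adjusted p = 0.0213), and Tgfbr3 had 5620, 5192 and 5903 in WT and 4354, 3786 and 4222 in KO (-0.21, SE 0.06, adjusted p = 0.013). Neither overlapped in CPM, but both calls were lost without WT replicate 1 (adjusted p = 0.103 and 0.0583), and that of Bmpr2 also without WT replicate 2 (adjusted p = 0.066). Tgfbr2 had 1808, 1648 and 1873 counts in WT and 1619, 1491 and 1517 in KO (0.02, SE 0.06, adjusted p = 0.84), and Bmpr1a had 2041, 1874 and 2020 in WT and 1856, 1670 and 1806 in KO (0.06, SE 0.06, adjusted p = 0.434). For these the CPM of the groups overlapped.

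**Figure D4:**
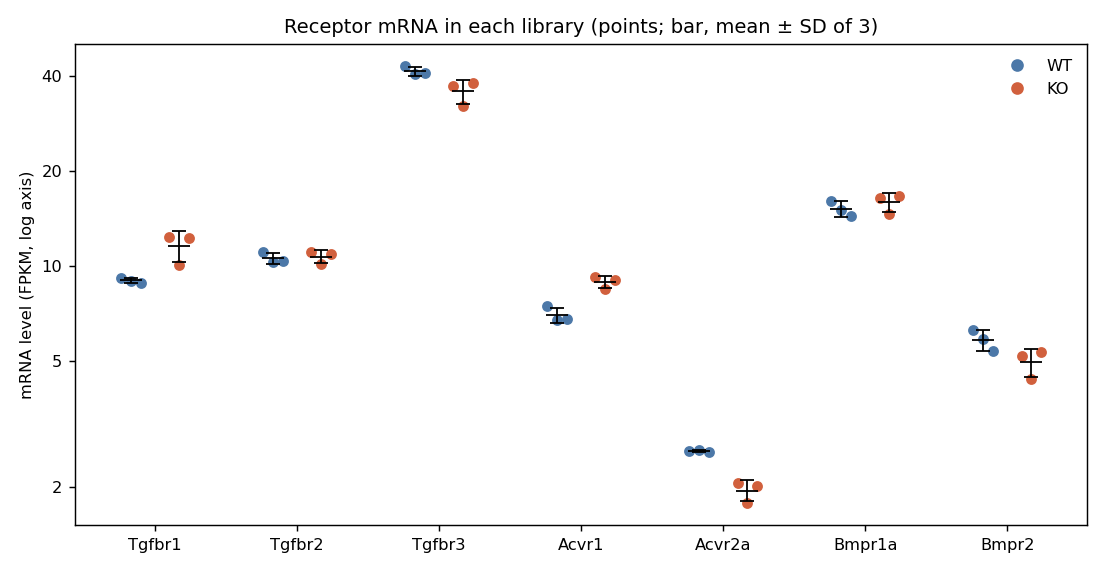
mRNA level of the 7 receptor genes in FPKM on a log axis, with points for libraries, WT in blue, KO in orange and bars for the mean ± SD of 3. Tgfbr3 was the highest at 41.6 FPKM in WT and Acvr2a the lowest at 2.60, and the shifts between genotypes are small beside the differences between genes.

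Per length, in FPKM, Tgfbr3 mRNA was the most abundant in WT (41.6 ± 1.40), followed by Bmpr1a (15.2 ± 0.876), Tgfbr2 (10.6 ± 0.443), Tgfbr1 (9.03 ± 0.162), Acvr1 (7.01 ± 0.385), Bmpr2 (5.85 ± 0.456) and Acvr2a (2.60 ± 0.023). In WT the 3 libraries of neighbours in this order did not overlap. In KO, Tgfbr1 (11.6 ± 1.31) stood above Tgfbr2 (10.7 ± 0.496), but by less than their spread. In the WT cytoplasm the order of circle output was another. Acvr2a, with the lowest mRNA level, gave 413 ± 15.1 circle RPM there, while Tgfbr3, with the highest, gave 182 ± 15.5 (SD, n = 2). Acvr1 gave 444 ± 28.1 and Bmpr2 414 ± 277, which do not differ from Acvr2a beyond their spread, and Bmpr1a gave 162 ± 47.2, Tgfbr1 106 ± 22.7 and Tgfbr2 99.9 ± 14.1. The order of Acvr2a and Tgfbr3 did not hold in the other groups. In the KO cytoplasm Tgfbr3 gave 596 ± 106 and Acvr2a 549 ± 608, in WT total RNA they gave 373 ± 62.6 and 413 ± 224, and both pairs overlap. In KO total RNA Tgfbr3 gave 569 ± 46.2, above the 307 ± 125 of Acvr2a.

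By the sample titles, mRNA and circles of the same gene stood as follows. Bmpr2 mRNA fell by 0.24 on the log2 scale and its cytoplasmic circle by 3.82, whereas Tgfbr2 mRNA differed by 0.02 and its cytoplasmic circle by -3.21. Tgfbr1 rose in both, by 0.36 as mRNA and 1.24 as the cytoplasmic circle sum (2.15 for exons 2-4). Tgfbr3 mRNA fell while 2 of its tested circles rose and exons 6-11 and 12-14 were lower without a call. Acvr1 mRNA rose by 0.34 beside a circle sum of -0.18, and Acvr2a mRNA fell by 0.42 beside a circle at 0.50. Neither circle value passed, nor did Bmpr1a as mRNA (0.06) or sum (0.099). With the headings of the mRNA files, Tgfbr1 mRNA would fall and Tgfbr3 mRNA would rise like 2 of its circles. Bmpr2 mRNA would then rise against its circle, and the Acvr1 and Acvr2a mRNAs would turn too.

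**Figure D5:**
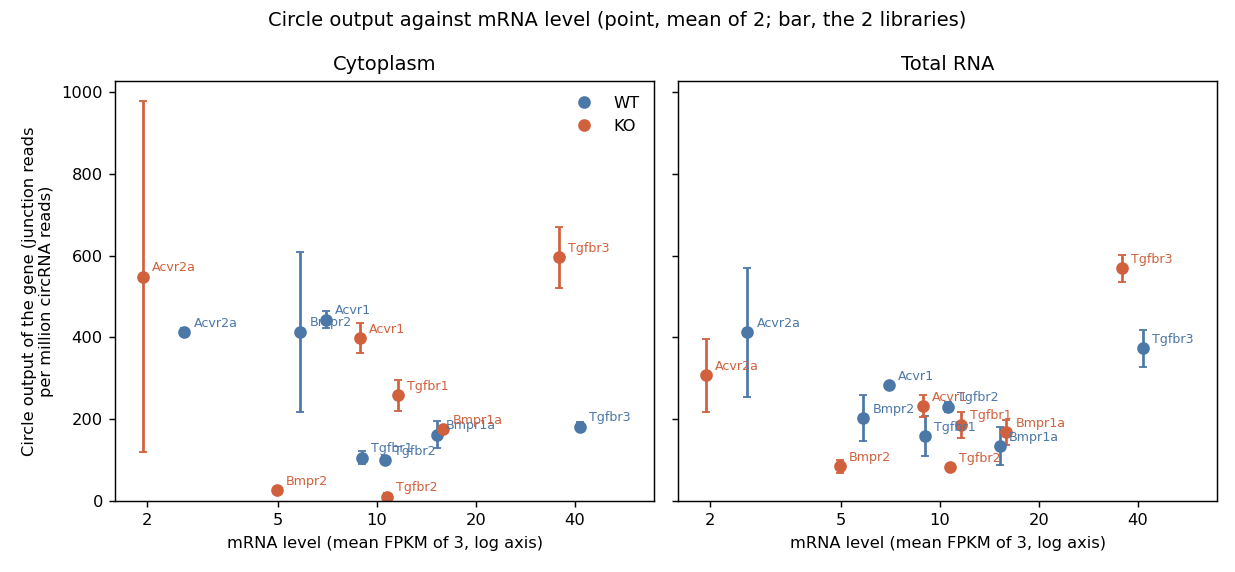
Circle output of each receptor gene (RPM, mean of 2 with a bar between the libraries) against its mRNA level (mean FPKM of 3, log axis) in the cytoplasm and in total RNA. Acvr2a combined the lowest mRNA level with 413 circle RPM in the WT cytoplasm, and Bmpr2 dropped from 414 to 25.7 between WT and KO while its mRNA went from 5.85 to 4.97 FPKM.

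The wider pathway held mRNAs with larger changes than the receptors. Of 94 further pathway genes, 69 passed the filter on low counts and 47 of these were called, 22 higher and 25 lower in KO, against 48.7% of all genes. Among the extracellular antagonists and latent TGF-beta binding proteins 14 of 15 tested were called, 6 higher and 8 lower, beside 25.1% and 23.6% of all genes. Grem1, a secreted BMP antagonist, rose from 5, 6 and 8 counts to 230, 197 and 199 (log2 fold change 5.23, SE 0.21), Fstl3, an activin-binding follistatin-like protein, rose from 22, 15 and 27 to 164, 158 and 148 (3.09, SE 0.19) and Ltbp4, which holds latent TGF-beta in the matrix, rose by 2.09 (SE 0.10). In the same group Nbl1, another BMP antagonist, fell by 1.92 (SE 0.07), Dcn, the TGF-beta-binding proteoglycan decorin, fell from 10169, 10254 and 11793 counts to 2565, 2762 and 2738 (-1.78, SE 0.06), and Fst, follistatin, fell by 1.75 (SE 0.11). The adjusted p was at most 3.28e-08 for each of these 6.

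Of the ligands, 6 of 23 were tested and 3 were higher in KO, beside 25.1% of all genes: Gdf11 (1.17, SE 0.08), Inhba, the subunit of activin A (1.12, SE 0.12), and Tgfb3 (0.23, SE 0.06). Of the other receptors and co-receptors 4 of 9 tested were called, a share near the 48.7% of all genes. Rgmb, a BMP co-receptor, rose from 708, 653 and 735 counts to 2122, 2076 and 1927 (1.77, SE 0.06) and Bambi, a decoy receptor, rose by 0.79 (SE 0.18), while Acvr2b, the other activin type II receptor, fell by 1.00 (SE 0.19) and Acvr1b, an activin type I receptor, fell by 0.21 (SE 0.08, adjusted p = 0.0444). The CPM of Acvr1b overlapped between genotypes, and its call was lost with DESeq2 (adjusted p = 0.0528) and in 4 of the 6 fits that left out a library (adjusted p = 0.066 to 0.166).

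All 8 Smads were tested, and 5 were lower in KO and none higher, beside 23.6% and 25.1% of all genes. Smad6, an inhibitory Smad, fell by 0.31 (SE 0.07), Smad5, a BMP Smad, by 0.25 (SE 0.06) and Smad4, the common partner, by 0.23 (SE 0.05). Smad3, which the study names as a protein that XPO4 carries, had 2105, 1893 and 2264 counts in WT and 2096, 1724 and 1863 in KO and did not pass (0.08, SE 0.07, adjusted p = 0.361), but was higher in KO without KO replicate 2 (0.16, adjusted p = 0.0197). Of 15 intracellular regulators, 5 were higher and 4 lower, or 9 called in all, beside 48.7% of all genes. Pmepa1, a TGF-beta-induced inhibitor of Smad signalling, rose by 2.49 (SE 0.10), Skil, a Smad co-repressor, by 1.08 (SE 0.12) and Tab2, an adaptor of the Map3k7 kinase, by 0.52 (SE 0.06), and Tab1, Zfyve16 and Strap fell by 0.26, 0.25 and 0.16. The calls of Zfyve16 and Strap were each lost in 4 of the 6 fits that left out a library.

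The 16 target genes were split, 6 higher and 6 lower, beside 25.1% and 23.6% of all genes. Ccn2, a matricellular protein, rose from 522, 545 and 617 counts to 3138, 3582 and 3222 (2.78, SE 0.07, adjusted p = 4.18e-12). Acta2, smooth muscle actin, rose by 1.18 (SE 0.06) and Id2, a BMP target, by 0.94 (SE 0.07). Junb, an AP-1 factor, fell by 0.83 (SE 0.06) and Col1a1, a collagen chain, by 0.34 (SE 0.06), and the CPM of the genotypes did not overlap for any of these 5 genes. The blood markers Ptprc and Cd68 were lower in KO in the same libraries, and their part in these values was not tested.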

How the data were processed

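CircRNA-seq libraries of nuclear, cytoplasmic and total RNA (2 each of WT and KO) and mRNA-seq libraries (3 each) of NIH/3T3 cells were grouped by the sample labels. For circRNA, the authors ran find_circ after RNase R digestion and deposited whole-number counts of junction reads per circRNA with positions on mm10, the same assembly as GRCm38. Starts count from 0 in the files and were moved by 1. The study's methods merged circRNAs found in both replicates and give no read threshold, and each fraction lists circRNAs found in at least 2 of 4 libraries with at least 3 (nucleus), 5 (cytoplasm) or 4 (total RNA) reads in all. For mRNA, the authors deposited counts per gene from featureCounts (version 2.0.0, read pairs, exons, without strand) after HISAT2, without normalization. Overlapping antisense reads thus cannot be told apart. The extract protocol in the labels speaks of blood samples, against the cell line in every other field.

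The mRNA file headers name the other genotype than the sample titles, which were followed. All tables were fitted whole with edgeR (version 4.0.16, R 4.3.3; TMM, glmQLFit and glmQLFTest), with Benjamini-Hochberg adjustment over all features and calls at 0.05. A circRNA entered a fit with 10 or more reads over its libraries, unlisted ones were set to 0, and mRNA used filterByExpr. Sums per host gene were fitted likewise. Standard errors were taken from the F statistic. The fits were tested on simulated data with known changes. Of circRNAs changed 4-fold, 35.5% were recovered in the cytoplasm, 41% in total RNA and 51.5% in the nucleus. Of mRNAs changed 2-fold, 98.5% were recovered. The spread between simulated libraries was set in advance rather than taken from these data. A circle that did not pass can therefore still differ. DESeq2 (version 1.42.0), other scalings, no filter, a replicate block and leaving out each library were the alternatives. RPM and CPM scale a library to 1000000 reads and FPKM divides CPM by the exon length in kb, all computed here. Exons came from GENCODE M21, and symbols from a reference table matched 55141 of 55401 gene IDs. Sequences were read from the RefSeq GRCm38.p6 genome (Python 3.11.15, pandas 2.3.3, numpy 2.4.6).

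The genes, circles and lists were chosen with earlier results of these data known. Circles were named when they were among the 2 most read of their gene, listed in the nucleus or among the 3 smallest p of a fraction. Tgfbr3 exon 2, Acvr1 exons 6-8, Acvr1 exons 4-9 and Bmpr1a exons 8-10 were named after their values were seen. Pathway genes were named at an adjusted p under 0.05 and a mean of at least 50 counts in the higher genotype, at most 3 per role and direction. The result of 1 target gene is not reported here. Smad3 was added because the study names it.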

Additional observations from a re-analysis of the deposited data

Results flagged for a closer look

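Chosen for a closer look were 5 pairs of fractions in which KO lay above WT in every library of the first and below WT in every library of the second, or the reverse, in RPM, with 2 libraries a group. Bmpr2 exons 2-3 was higher in KO nuclei (log2 fold change 2.19) and lower in KO cytoplasm, and the interaction term between fraction and genotype was 6.43 (unadjusted p = 0.0015, adjusted p = 0.992 in edgeR), between 5.37 and 10.7 when a library was left out. The same circle was lower in KO total RNA (-1.29), and that difference from the nucleus was not tested. Acvr1 exons 7-9 was higher in KO cytoplasm and lower in KO total RNA (-1.44). Acvr1 exons 2-3 was lower in KO cytoplasm and higher in KO total RNA, on 9 reads in total RNA. Tgfbr3 exons 3-4 was higher in KO cytoplasm and lower in KO total RNA (-1.47); its cytoplasmic direction was known when the genes were chosen, and the pair is a description only. The difference between cytoplasm and total RNA was not tested for these 3 circles. Shares of all circRNAs whose genotypes do not overlap within a fraction were 62.2% (nucleus), 82.2% (cytoplasm) and 70.1% (total RNA). Such opposite directions were also found in 14.4% of the 305 circRNAs tested in both nucleus and cytoplasm, in 44 of the 314 tested in both nucleus and total RNA, and in 21.5% of the 4125 tested in both cytoplasm and total RNA.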

How the results depend on the processing

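Of 762 values recomputed under other settings, 683 kept their direction and their side of the threshold, 49 lost the threshold, 11 gained it and 19 changed sign. The count of receptor circles called in the cytoplasm, 8, became 4 without scaling and 2 with DESeq2, and ran from 4 to 7 when a library was left out. In total RNA the count of 0 of 15 became 2 with scaling by the circRNA total, where 2003 of 8903 circRNAs were called. With the replicate block it became 2, where 2054 were called. For sums per host gene the count in the cytoplasm, 3 of 6, became 1 without scaling, 1 with DESeq2 and 0 with the replicate block. Of all 3605 host genes, 1094, 141 and 0 were called under these settings, against 1645 in the main fit. The count of 1 in total RNA became 0 without scaling, with DESeq2 and without the filter. The calls over all host genes were then 0 of 3553, 3 of 3553 and 3 of 3891, against 381 of 3553 in the main fit. The 5 mRNA calls, where 7151 of 14688 genes were called, ran from 3 to 5 when a library was left out. The 3 came without WT replicate 1, where 6179 of 14926 genes were called. Without scaling, the cytoplasmic calls of Bmpr2 exons 2-3, Acvr1 exons 2-3, Acvr1 exons 6-8, Tgfbr3 exons 11-12 and Tgfbr3 exon 2 were lost while that of Acvr1 exons 4-5 was gained, with directions kept. In the nucleus no receptor circle could be tested without either KO library. The causes of these shifts were not tested.

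Replicate numbers shared by the genotypes did not pair the libraries: correlations of deviations were 0.0914, 0.0579 and -0.112 for mRNA and between -0.0132 and 0.018 for circRNA. With the replicate block the counts were 5 for mRNA, where 7124 of 14688 genes were called, and 8 in the cytoplasm, where 4445 of 8917 circRNAs were. Acvr2a exons 2-4 changed sign (-0.059). Over all cytoplasmic host genes the block took the calls from 1645 to 0, and over all total RNA circRNAs from 0 to 2054.

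When libraries were left out, cytoplasmic values ran from -1.37 to 1.87 for Acvr2a exons 2-4, from -0.61 to 0.89 for Bmpr1a exons 2-5 from -1.0 to 0.88 for Tgfbr3 exons 6-11 and from -1.29 to 0.34 for Tgfbr3 exons 12-14. In total RNA they ran from -1.25 to 0.36 for Acvr2a exons 2-4, from -1.07 to 0.13 for Bmpr1a exons 9-10, from -0.55 to 0.74 for Tgfbr1 exons 2-4 and from -0.14 to 1.17 for Tgfbr3 exons 6-11. Host gene sums ran in the cytoplasm from -1.78 to 1.42 for Acvr2a and from -0.19 to 0.27 for Bmpr1a, which was -0.37 without scaling. In total RNA the sums ran from -0.96 to 0.23 for Acvr2a, from -0.19 to 0.83 for Bmpr1a and from -0.26 to 0.68 for Tgfbr1. Tgfbr2 mRNA ran from -0.0043 without WT replicate 2 to 0.054 without KO replicate 2. Where an arm held 1 library, that library was taken to vary like the others.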

Other observations

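Of the genes with no count in any WT mRNA library and at least 50 in every KO mRNA library, 4 had circle reads in WT total RNA: Ppargc1a, Sobp, Mboat1 and Uty, chosen after their values were seen. Ppargc1a, a coactivator of mitochondrial genes, had 283, 277 and 357 mRNA counts in KO, while its circles had 7 and 4 reads in WT total RNA and 4 and 8 in KO. Mboat1 had 110, 98 and 70 mRNA counts in KO and circles with 5 and 5 reads in WT total RNA and 9 and 12 in KO. Uty had 135, 100 and 119 mRNA counts in KO and circles with 10 and 12 reads in WT total RNA and 19 and 24 in KO. Sobp had 66, 58 and 66 mRNA counts in KO, and its circles had only 1 and 0 reads in WT total RNA and 3 and 6 in KO.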
